A study of Mus musculus with 21 samples.

Results

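A set of 10 chemokine ligand genes was followed through cultured prostate cancer cells and the tumours grown from them: Cxcl9, Cxcl10, Cxcl16, Cxcl12, Ccl5, Ccl2, Ccl7, Ccl8, Cx3cl1 and Cxcl1. They were chosen by name, as ligands that attract T cells, monocytes or neutrophils, and are 10 of the 45706 genes in the table. The libraries came from Myc-CaP, cancer cells of the mouse prostate that carry a Myc transgene, either wild type (WT) or with a CRISPR knockout (KO) of Ern1, which encodes IRE1α, a sensor of stress in the endoplasmic reticulum. All KO lines were made with the same guide RNA, and there were 3 of them, called KO1, KO2 and KO3, against 1 WT line. Cultured cells gave 8 libraries, 2 of WT and 2 of each KO line, grown in medium with serum and with no further treatment named. Tumours in FVB mice gave 13 libraries, 4 of WT and 3 of each KO line. Their host mice are not described as knockouts, so the genotype named is that of the cancer cells, and no source used here gives their ages. Of the 8 prostate epithelial markers examined, 4 had at least 10 counts in every cell library and 2, Epcam among them, were at 0 in all of them. Foxa1, a transcription factor of luminal prostate cells, stood between 134 and 184 CPM, which is a count scaled to library size, in cells and between 80.8 and 172 CPM in tumours.

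Chemokines are small secreted proteins that bind receptors on leukocytes and direct their movement along a gradient. CXCL9 and CXCL10 are induced by interferons and bind CXCR3 on activated T cells and natural killer cells, while CCL2 and CCL7 call CCR2-bearing monocytes out of the blood. CXCL1 binds CXCR2 on neutrophils and is a classic target of NF-κB. In tumours these ligands can come from the cancer cells, from stromal cells or from the leukocytes that have already arrived, and RNA of a whole tumour does not separate these sources.

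Promoters are shown for the interferon-induced pair and for the neutrophil ligand, and were searched for interferon-type and NF-κB-type elements. Of the 10 ligands, 6 had an entry in the RefSeq promoter table (GRCm38.p6), and the 250 bases before the start site are printed 5′ to 3′ on the gene's strand, with matches to a searched motif in capitals.
Cxcl9: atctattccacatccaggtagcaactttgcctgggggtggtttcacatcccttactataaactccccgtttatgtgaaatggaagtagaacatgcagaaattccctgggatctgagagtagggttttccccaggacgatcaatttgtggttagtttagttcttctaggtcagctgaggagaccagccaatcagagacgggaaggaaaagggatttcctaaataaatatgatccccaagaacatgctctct
Cxcl10: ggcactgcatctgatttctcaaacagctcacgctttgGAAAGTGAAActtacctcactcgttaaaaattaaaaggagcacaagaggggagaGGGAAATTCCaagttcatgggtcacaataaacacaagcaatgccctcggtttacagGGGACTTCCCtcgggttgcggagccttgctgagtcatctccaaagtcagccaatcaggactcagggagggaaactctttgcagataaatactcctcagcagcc
Cxcl1: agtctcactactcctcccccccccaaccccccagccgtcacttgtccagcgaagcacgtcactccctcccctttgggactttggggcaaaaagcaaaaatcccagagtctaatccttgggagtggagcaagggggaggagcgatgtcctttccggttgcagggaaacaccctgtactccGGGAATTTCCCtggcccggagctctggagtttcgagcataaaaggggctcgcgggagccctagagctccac
These stretches lie at chr5:92328080-92328329 on the minus strand for Cxcl9, chr5:92348890-92349139 on the minus strand for Cxcl10, and chr5:90890995-90891244 on the plus strand for Cxcl1. Searched on both strands were the interferon-stimulated response element as GAAA followed after any 2 bases by GAAA, the gamma-activated sequence as TTCNNNGAA, and the NF-κB consensus. Cxcl10 held 1 interferon-type match, GAAAGTGAAA, beginning 213 bases before the start site, and 2 NF-κB-type matches, GGGAAATTCC and GGGACTTCCC. Cxcl1 held 1 run in which 2 NF-κB-type matches overlap, GGGAATTTCC on the plus strand and GGAATTTCCC on the minus strand. Cxcl9 held none of the 3, and neither did the entries of Cxcl12, Cx3cl1 and Ccl8, which are not printed. Among 32851 promoters of the same length, 2.98% held the interferon-type element, 7.02% the gamma-activated sequence and 3.9% the NF-κB consensus. Such a match describes letters in a window and is not a measured binding site.

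A cell library held 18105538 to 25068254 counts in total and a tumour library 15994285 to 27497796, so that 1 library with a count of 0 allows a level of up to 0.120 to 0.166 CPM in cells, at 3 counts and for counting error only. WT tumour replicates 1 and 4 stood apart from the other tumours. In replicate 4 a single gene, Yam1, made up 24% of all reads counted, where the other 12 tumours had 6.16% to 8.47%. Replicate 1 had far more transcripts of neutrophils, skeletal muscle and red cells than any other tumour, as given below, and results that rest on it are given with and without it. WT tumours 3 and 4 share a number in their descriptions and may come from 1 mouse. Nothing in the labels says that the cell libraries are separate cultures, so a p-value speaks of the spread among libraries, which may be technical, and 1 WT line does not show how WT lines vary.

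In culture, 5 of the 10 ligands had no transcript counted and 1 had a single count. Levels are given as CPM scaled by TMM (trimmed mean of M values) over all 21 libraries. Cxcl9, Cxcl12, Cxcl16, Ccl7 and Ccl8, 5 of the 10, had a count of 0 in all 8 cell libraries, and Ccl2 had 1 count, in KO3 replicate 2. Cxcl1 and Cx3cl1 were the 2 with at least 10 estimated counts in every cell library. Ccl5 reached 10 counts in 4 of the 8 libraries, and Cxcl10 had 1 to 9 counts in each. A list of 6 leukocyte genes summed to 0.496 to 1.87 CPM in the cell libraries, against 131 to 295 CPM in tumours. Tyrobp and Laptm5 had no count in any, Ptprc, the pan-leukocyte gene, and Fcer1g stood at 0.0522 CPM or less, and nearly all reads of the list were of Coro1a and Cd52. Cd52 was lower in KO than in WT cells, by a log2 fold change of -2.66 ± 0.53 (SE, adjusted p = 0.0094 by edgeR). In the same libraries Ccl5 was at 0.210 to 0.992 CPM, within or below the range of that sum, and Cxcl10 at 0.0392 to 0.452 CPM, below it. A part of leukocyte RNA in these 2 levels was not tested. Compared per kilobase of merged exon, the median over the 8 cell libraries was 1.65 CPM for Cxcl1, 1.60 for Cx3cl1, 0.438 for Ccl5 and 0.0621 for Cxcl10. The ranges of Cxcl1 and Cx3cl1 overlapped, and those of Cx3cl1 and Ccl5 overlapped as well.

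Tumours had transcripts of all 10 ligands. In WT tumours against WT cells, 51% of the 14031 genes tested changed in either direction and 29.8% were higher (edgeR's quasi-likelihood test, adjusted p under 0.05). Of the 10 ligands, 6 had no count in WT cells and Cxcl10 had 6 counts over both WT libraries, so these 7 passed the filter on low counts through the tumours and had to differ. Their sizes are given as a description. Ccl5, Cx3cl1 and Cxcl1 passed the filter in cells too, but Ccl5 did so through KO libraries, with 8 and 4 counts in the WT cell libraries. In this comparison Ccl5 therefore also entered through the tumours, and its size is a description. Cx3cl1 was higher in WT tumours and Cxcl1 did not pass. For the ligands without a count in WT cells the size is a lower bound, taken at 3 counts over the 2 WT cell libraries and on CPM by library total. The mean of the WT tumours was at least 466-fold higher for Ccl8, at least 331-fold for Cxcl12, at least 169-fold for Ccl2, at least 166-fold for Ccl7, at least 157-fold for Cxcl16 and at least 57.6-fold for Cxcl9. Taking the lowest WT tumour in place of the mean, the bounds were 58.6, 159, 62.9, 51.7, 128 and 39.6. For Cxcl10 the log2 fold change was 4.43 ± 0.43 (SE). For Ccl5 it was 3.55 ± 0.50 (SE). These differences came with those of cell types that culture lacks: the summed level of 12 macrophage and monocyte markers was 8.09 to 11.5 CPM in cells and 252 to 788 CPM in tumours, with Adgre1 and the C1q genes among the 5 at 0 in all cell libraries. The sum of 9 fibroblast markers was 13.9 to 20.8 CPM in cells and 464 to 2881 CPM in tumours, with Col3a1, Lum, Fap and Thy1 at 0 in all cell libraries. The part of each cell type in the ligand levels was not tested, and in bulk tumours fewer cells of a type and less RNA per cell cannot be told apart.

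Per kilobase, Ccl8 was the most abundant of the 10 in tumours, with a median of 60.7 CPM per kilobase over the 13 libraries. It was followed by Ccl7 at 9.88, Ccl2 at 7.28, Cxcl16 at 4.74, Ccl5 at 4.12, Cx3cl1 at 3.03, Cxcl12 at 1.99, Cxcl9 at 1.97, Cxcl10 at 1.78 and Cxcl1 at 0.846. The ranges of every neighbouring pair in this order overlapped. The monocyte ligands of the CCL cluster thus had the 3 highest medians in tumours while being absent, or at 1 count, in the cultured cells.

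The first group of ligands acts on T cells. Cxcl9 and Cxcl10, neighbours on chromosome 5 (92321347 to 92328079 and 92346638 to 92348889 in GRCm38, 18.558 kb apart), encode the CXCR3 ligands. Cxcl9 was at 4.07, 3.65, 5.90 and 3.71 CPM in WT tumours, 11.2, 8.63 and 7.42 in KO1, 6.53, 3.49 and 5.96 in KO2, and 4.51, 8.90 and 10.1 in KO3. Thus 7 of the 9 KO tumours exceeded the highest WT tumour and 1 lay below the lowest, so the groups overlapped. The log2 fold change of KO against WT was 0.78 ± 0.28 (SE) and did not pass (adjusted p = 0.139 by edgeR). Cxcl10 was at 2.89, 3.34, 4.26 and 2.74 CPM in WT tumours, 5.61, 8.47 and 6.05 in KO1, 2.91, 2.71 and 3.57 in KO2, and 6.05, 4.0 and 4.84 in KO3. Here 5 of the 9 KO tumours exceeded the highest WT tumour and 1 lay below the lowest, so the groups overlapped. The log2 fold change of the KO tumours together was 0.57 ± 0.28 (SE, adjusted p = 0.283 by edgeR). Cxcl10 overlaps Art3 on the opposite strand, and no source used here says whether the counting used strand.

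In cells Cxcl10 was at 0.144 and 0.157 CPM in WT, 0.452 and 0.229 in KO1, 0.104 and 0.0997 in KO2, and 0.136 and 0.0392 in KO3. These levels are of 1 to 9 counts and passed no filter, so no difference between lines can be read from them. Of 23 genes that induce chemokines or relay that signal, 20 could be tested between WT tumours and WT cells. Of these 8 were higher and 8 lower, where 29.8% of all genes tested were higher and 21.3% lower. Their median log2 fold change was 0.058 against 0.13 over all genes. Among transcription factors of the interferon response, Irf7 was higher in tumours by 5.21 ± 0.27 on the log2 scale and Irf1 was lower, with a log2 fold change of -0.86 ± 0.14 (SE, adjusted p = 2.79e-05 and 0.0026 by edgeR). Ifng and Ifnb1, the interferon genes examined, had no count in cells and at most 2 counts and 1 count in a tumour.

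Cxcl16, a membrane-bound or shed ligand of CXCR6 on T cells (chromosome 11, 70453983 to 70459984), was at 10.8, 10.6, 14.3 and 11.9 CPM in WT tumours. It was at 17.6, 24.7 and 19.5 CPM in KO1, 14.6, 10.8 and 12.4 in KO2, and 13.2, 16.1 and 17.2 in KO3. Of the 9 KO tumours 6 exceeded every WT tumour and none lay below them, with a log2 fold change of 0.45 ± 0.19 (SE, adjusted p = 0.205 by edgeR). The gene overlaps Zmynd15 on the opposite strand.

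Ccl5, a ligand made by T cells among others (chromosome 11, 83525778 to 83530518), had reads in cells as well. In culture it was at 0.384 and 0.210 CPM in WT (8 and 4 counts), 0.954 and 0.992 in KO1 (19 and 26 counts), 0.522 and 0.449 in KO2, and 0.271 and 0.392 in KO3. KO1 was the highest line, with 2 libraries in each. In tumours Ccl5 was at 4.60, 2.91, 3.96 and 2.34 CPM in WT, 6.57, 8.24 and 3.63 in KO1, 3.69, 3.54 and 4.72 in KO2, and 3.92, 4.52 and 5.93 in KO3. Here the groups overlapped, with 4 of 9 KO tumours above the highest WT, and the log2 fold change was 0.53 ± 0.26 (SE, adjusted p = 0.284 by edgeR).

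Cxcl12, the CXCR4 ligand that stromal cells make to hold many leukocytes in place (chromosome 6, 117168535 to 117181367), had no count in any cell library. In WT tumours it was at 53.4, 14.4, 15.4 and 14.9 CPM, in KO1 at 48.1, 50.7 and 27.3, in KO2 at 16.3, 15.3 and 15.2, and in KO3 at 16.2, 19.8 and 26.2. WT replicate 1 was at the level of 2 of the KO1 tumours, while the other WT tumours were at the level of KO2. The log2 fold change of KO against WT was 0.09 ± 0.43 (SE, adjusted p = 0.925 by edgeR) with all tumours and 0.81 ± 0.39 (adjusted p = 0.276 by edgeR) without WT replicate 1. The sign with all 13 tumours was not stable: it was negative in 3 other settings and in 5 of the fits that leave out a library. The summed fibroblast markers moved with the level of Cxcl12, being 2461 CPM in WT replicate 1 and 464 to 1184 in the other WT tumours, and 1922 to 2881 in KO1, 704 to 968 in KO2 and 712 to 1586 in KO3. All 9 of these markers were detected in every tumour, and their part in the level of Cxcl12 was not tested.

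The second group acts on monocytes. Ccl2, Ccl7 and Ccl8 lie together on chromosome 11, Ccl2 at 82035571 to 82037453, Ccl7 at 82045712 to 82047525 and Ccl8 at 82115185 to 82116799, all on the plus strand, with 8.258 kb and 67.659 kb between them. Ccl2, the main CCR2 ligand, was at 26.9, 9.35, 7.61 and 5.88 CPM in WT tumours, 8.42, 9.81 and 6.0 in KO1, 8.29, 7.17 and 4.48 in KO2, and 10.1, 8.0 and 12.7 in KO3. Ccl7, which binds CCR2 and other receptors, was at 28.9, 6.91, 7.91 and 4.83 CPM in WT tumours, 11.7, 9.92 and 7.42 in KO1, 7.64, 6.93 and 5.62 in KO2, and 8.89, 9.89 and 11.5 in KO3. For both genes WT replicate 1 was the highest tumour, more than the spread of the other 12, while the other WT tumours lay among the KO tumours. The direction of KO against WT depended on that library: for Ccl2 the log2 fold change was -0.58 ± 0.34 (SE, adjusted p = 0.359 by edgeR) with it and 0.12 ± 0.25 (adjusted p = 0.821 by edgeR) without it. For Ccl7 it was -0.46 with it (adjusted p = 0.507 by edgeR) and 0.42 without it (adjusted p = 0.320 by edgeR). Ccl2 overlaps Gm17268 on the opposite strand.

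Ccl8, a ligand of several CC receptors that macrophages make, had the largest SD of the 10 over the 13 tumours, 38.0 CPM. It was at 81.2, 24.1, 23.5 and 5.48 CPM in WT tumours, 146, 79.0 and 33.3 in KO1, 31.0, 25.4 and 28.9 in KO2, and 26.8, 35.4 and 74.3 in KO3. The lowest tumour was WT replicate 4, the library with the large share of Yam1, and the highest was KO1 replicate 1. With all 13 tumours the KO and WT groups overlapped, with 1 of the 9 KO tumours above the highest WT tumour and none below the lowest. The log2 fold change was 0.67 ± 0.60 (SE, adjusted p = 0.571 by edgeR) with all tumours and 1.58 ± 0.62 (adjusted p = 0.182 by edgeR) without WT replicate 1. The summed macrophage and monocyte markers were 648 CPM in WT replicate 1, 252 to 360 in the other WT tumours, 623 to 788 in KO1, 364 to 433 in KO2 and 406 to 606 in KO3, with all 12 markers detected in every tumour. None of these 12 passed between KO and WT tumours by edgeR, where 3.65% of all genes did. Of the 12, 5 had an unadjusted p under 0.05 by edgeR, as did 19.5% of all genes. DESeq2, which called more genes in all than edgeR, called Adgre1, C1qa and C1qc, 3 of the 10 with an adjusted p. The share of all genes that DESeq2 called in this comparison was not taken. The part of these markers in the level of Ccl8 was not tested.

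Cx3cl1, or fractalkine, is a membrane-tethered ligand of CX3CR1 on monocytes and macrophages (chromosome 8, 94772009 to 94782427), and it was the one monocyte ligand with steady expression in cultured cells. There it was at 6.92 and 7.07 CPM in WT, 5.62 and 5.27 in KO1, 3.39 and 3.54 in KO2, and 9.67 and 9.37 in KO3. The 2 libraries of each line lay close together, with the order KO3, WT, KO1, KO2. With only 2 libraries for each line, this order is a description. By edgeR 30.3% of genes differed among the KO lines in cells. Because KO3 was above WT and the other KO lines below it, the KO lines together did not differ from WT by the test, with a log2 fold change of -0.20 ± 0.38 (SE, adjusted p = 0.756 by edgeR). Without KO3 it was -0.64 ± 0.22 (SE, adjusted p = 0.0421 by edgeR, a fit in which 35.9% of the genes passed), and with the lines as groups of their own it was -0.32 ± 0.11 (adjusted p = 0.0382 by edgeR, 39% of genes). In tumours Cx3cl1 was at 10.6, 10.6, 11.2 and 9.18 CPM in WT, 9.49, 14.0 and 18.3 in KO1, 13.5, 16.3 and 12.8 in KO2, and 11.6, 11.9 and 13.1 in KO3. Of the 9 KO tumours 8 exceeded the highest WT tumour, yet the log2 fold change of 0.38 ± 0.15 (SE) did not pass (adjusted p = 0.182 by edgeR). The order of the lines in culture was not kept in tumours, where the mean of KO2 was 14.2 ± 1.89 CPM and that of KO3 12.2 ± 0.78 CPM (SD, n = 3 each). WT tumours were higher than WT cells by 0.61 ± 0.17 on the log2 scale (SE, adjusted p = 0.0215 by edgeR), a call lost when either WT cell library was left out (adjusted p = 0.131 and 0.104 by edgeR).

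The last ligand, Cxcl1, acts on neutrophils through CXCR2 (chromosome 5, 90891241 to 90893115). Its level in cells was even: 2.93 and 2.83 CPM in WT, 2.56 and 3.17 in KO1, 3.24 and 3.69 in KO2, and 3.03 and 3.41 in KO3. KO cells did not differ from WT by the test (log2 fold change 0.13 ± 0.19, SE, adjusted p = 0.665 by edgeR). In tumours it was at 16.3, 2.24, 2.56 and 2.34 CPM in WT, 0.561, 0.392 and 0.656 in KO1, 1.90, 2.28 and 1.38 in KO2, and 1.59, 1.22 and 1.09 in KO3. Leaving aside WT replicate 1, tumours were at 0.392 to 2.56 CPM and cell libraries at 2.56 to 3.69 CPM, with the highest such tumour and the lowest cell library nearly equal. WT tumours did not differ from WT cells by the test, at 1.09 ± 0.95 on the log2 scale (SE, adjusted p = 0.374 by edgeR), and the sign turned to -0.25 without WT replicate 1.

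Cxcl1 was the 1 ligand of 10 that passed between KO and WT tumours, where it fell by 2.24 ± 0.53 on the log2 scale (SE, adjusted p = 0.0335 by edgeR), and no ligand passed upwards. Of the 14200 genes tested 3.65% passed, 1.28% higher and 2.37% lower. For none of the 10 did the KO tumours lie entirely above or below the WT tumours, as they did for 1.44% and 2.15% of genes. Of the 9 KO tumours 8 lay below the lowest WT tumour and the other, KO2 replicate 2 at 2.28 CPM, was between the 2 lowest WT tumours. The call depended on WT replicate 1. Without it the log2 fold change was -0.94 ± 0.41 (SE, adjusted p = 0.230 by edgeR), in a fit that called 2.4% of genes, and without WT replicates 1 and 4 it was -0.93 (adjusted p = 0.429 by edgeR). The call was also lost without KO1 replicate 3 (adjusted p = 0.0570), without KO2 replicate 3 (adjusted p = 0.0508) and without the KO3 line (adjusted p = 0.0691, all by edgeR), and DESeq2 gave no adjusted p for it. The direction was negative in every one of these fits.

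**Figure D1:**
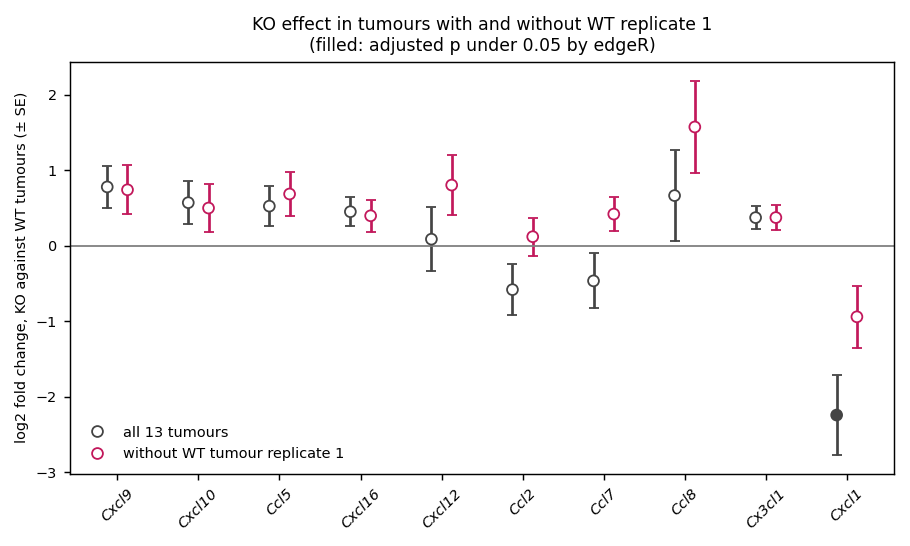
Log2 fold change of KO against WT tumours for each ligand (vertical axis, log2, bars ± SE), by edgeR with all 13 tumours (grey) and without WT tumour replicate 1 (magenta); filled points have an adjusted p under 0.05. Cxcl1 passed with all tumours and did not without that library, and Ccl2 and Ccl7 moved from below 0 to above it.

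Over the 10 ligands in KO against WT tumours, 7 had a positive log2 fold change, with a median of 0.41 against 0.0017 over all genes tested. Without WT replicate 1, 9 were positive, Cxcl1 being the exception, and none passed. With all tumours 4 of the 10 had an unadjusted p under 0.05, as did 19.5% of all genes. DESeq2 gave an adjusted p for 9 of them and called none. In cells 3 ligands passed the filter on low counts (Cxcl1, Cx3cl1 and Ccl5), and none differed between KO and WT, where 14.8% of 12254 genes did, 4.99% being higher and 9.76% lower. None of the 3 had an unadjusted p under 0.05 by edgeR, and DESeq2 called none. For Ccl5 the log2 fold change was 0.98 ± 0.60 (SE, adjusted p = 0.296 by edgeR). The difference between the KO effect in tumours and that in cells could be fitted for the 4 ligands with more than 3 counts over the cell libraries, Cxcl10, Ccl5, Cx3cl1 and Cxcl1. None of them passed, where 0.962% of genes did. The size for Cxcl1 was -2.41 ± 0.84 (SE, adjusted p = 0.226 by edgeR), the 1 with an unadjusted p under 0.05, and DESeq2, with an adjusted p for 3 of the 4, called none.

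The KO lines were also compared with each other. In cells 2 of the 3 tested ligands differed among the lines, where 30.3% of genes did. Cx3cl1 did so with an adjusted p of 4.99e-05 by edgeR, and in each fit that leaves out 1 cell library. Its mean was 5.44 ± 0.25 CPM in KO1, 3.47 ± 0.10 in KO2 and 9.52 ± 0.21 in KO3, against 6.99 ± 0.11 in WT (SD, n = 2 each). Ccl5 had an adjusted p of 0.0348 by edgeR, lost in each of those 8 fits and by DESeq2 (adjusted p = 0.211). Cxcl1 did not differ among the lines in cells (adjusted p = 0.548 by edgeR), nor did the test with edgeR call any of the 10 ligands among the lines in tumours, where 2.95% of genes passed.

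**Figure D2:**
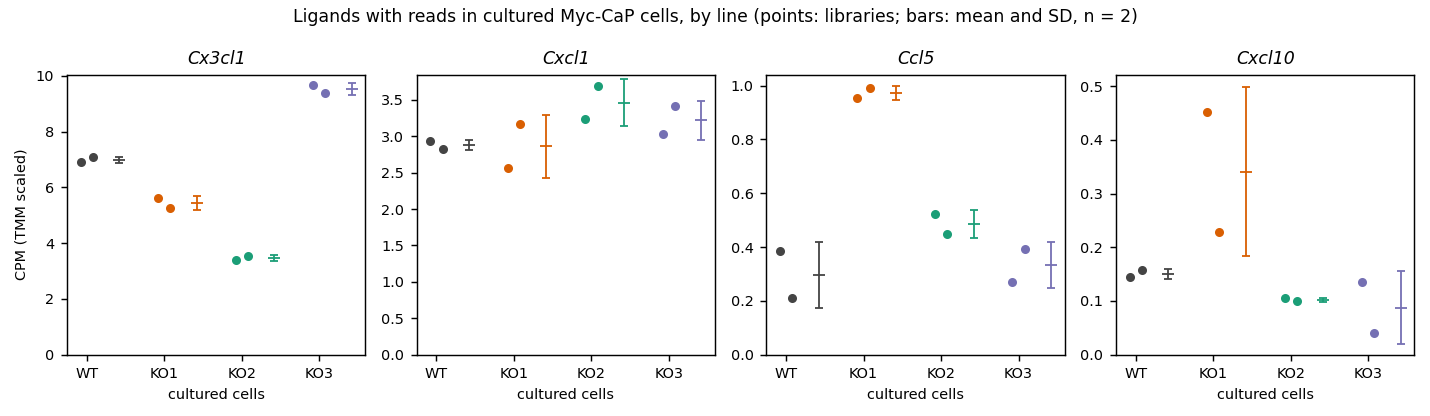
Level of the 4 ligands with reads in cultured cells, in CPM scaled by TMM over 21 libraries (vertical axes, each gene on its own scale, from 0), by line; points are libraries and bars the mean and SD of 2. Cx3cl1 is highest in KO3, at 9.37 and 9.67, and lowest in KO2, at 3.39 and 3.54, and the levels of Cxcl10 are of 1 to 9 counts.

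In tumours KO1 had the highest mean of the KO lines for Cxcl9 (9.09 ± 1.95 CPM), Cxcl10 (6.71 ± 1.54), Cxcl16 (20.6 ± 3.68), Ccl5 (6.15 ± 2.33), Cxcl12 (42 ± 12.8) and Ccl8 (86.1 ± 56.6), and the lowest for Cxcl1 (0.537 ± 0.133, SD, n = 3 each). KO2 had the lowest mean of the KO lines for the first 6, at 5.32 ± 1.61, 3.06 ± 0.45, 12.6 ± 1.90, 3.98 ± 0.64, 15.6 ± 0.613 and 28.4 ± 2.87 CPM, and the highest for Cxcl1, at 1.85 ± 0.45 CPM (SD, n = 3 each). KO1 and KO2 did not overlap for Cxcl9, Cxcl10, Cxcl16, Cxcl12, Ccl8 or Cxcl1, and overlapped for the other 4, where 28.3% of the 14483 genes tested did not overlap between these lines. The summed macrophage and monocyte markers ranked the lines the same way, at 726 ± 90.1 CPM in KO1, 490 ± 104 in KO3 and 410 ± 39.7 in KO2 (SD, n = 3 each). So did the fibroblast markers, at 2488 ± 503, 1188 ± 442 and 836 ± 132 CPM. Of the 12 macrophage and monocyte markers edgeR called 2 among the lines and DESeq2 called 6, and of the 9 fibroblast markers they called 1 and 4. Their part in the order of the ligands was not tested. By edgeR 3 of the 10 had an unadjusted p under 0.05 among the lines, as did 18.5% of all genes, and Cxcl10 came nearest with an adjusted p of 0.0583. DESeq2, which called 8.8% of genes here, called Cxcl10 (adjusted p = 0.00326), Cxcl16 (adjusted p = 0.0150) and Cxcl12 (adjusted p = 0.0311). Without WT tumour replicate 1, whose spread enters the same fit, edgeR called 7.63% of genes, and with them Cxcl10 (adjusted p = 0.0305), Cxcl12 (adjusted p = 0.00567) and Cxcl1 (adjusted p = 0.0155). Leaving out WT replicate 4 also brought Cxcl10 under the threshold (adjusted p = 0.0492 by edgeR).

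WT tumour replicate 1 was examined for all 10 ligands. It was the highest of the 13 tumours for 4 of them, Cxcl1, Cxcl12, Ccl2 and Ccl7, and at least 2-fold above every other tumour for 3, where 16% and 2.65% of the 14200 genes tested were so. Over the highest of the other WT tumours it stood 6.38-fold for Cxcl1, 3.65-fold for Ccl7, 3.46-fold for Cxcl12, 3.37-fold for Ccl8 and 2.87-fold for Ccl2. It did not stand out for the other 5: its ratio to that tumour was 0.690 for Cxcl9, 0.678 for Cxcl10, 0.752 for Cxcl16, 1.16 for Ccl5 and 0.948 for Cx3cl1. The same tumour held the other CXCR2 ligands, Cxcl2 at 33.1 CPM, Cxcl5 at 31.6, Cxcl3 at 19.0 and Ppbp at 12.7, while the other 12 tumours had at most 1.71, 0.518, 0.142 and 0.646 CPM. Cxcr2 itself was at 30.6 CPM, against at most 0.80 in another tumour.

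Neutrophil transcripts were also high in this 1 tumour. All 8 neutrophil markers were highest in WT replicate 1 and at least 2-fold above every other tumour, with a summed level of 247 CPM against 3.71 to 6.56 in the other WT tumours and 3.34 to 8.93 in KO tumours. S100a9 was at 110 CPM there and at most 1.40 in any other tumour, and Ly6g, at 0 in the other 12 tumours, was at 0.190 CPM. In cells 6 of the 8 markers were at 0 in all libraries. The 6 skeletal muscle markers summed to 4016 CPM in this tumour, against 12.2 to 64.3 in the other WT tumours and 8.01 to 914 in KO tumours. Of the 5 erythroid markers all were at least 2-fold above every other tumour, whereas none of the 10 T cell markers was highest there. Their part in the ligand levels of this tumour was not tested.

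**Figure D3:**
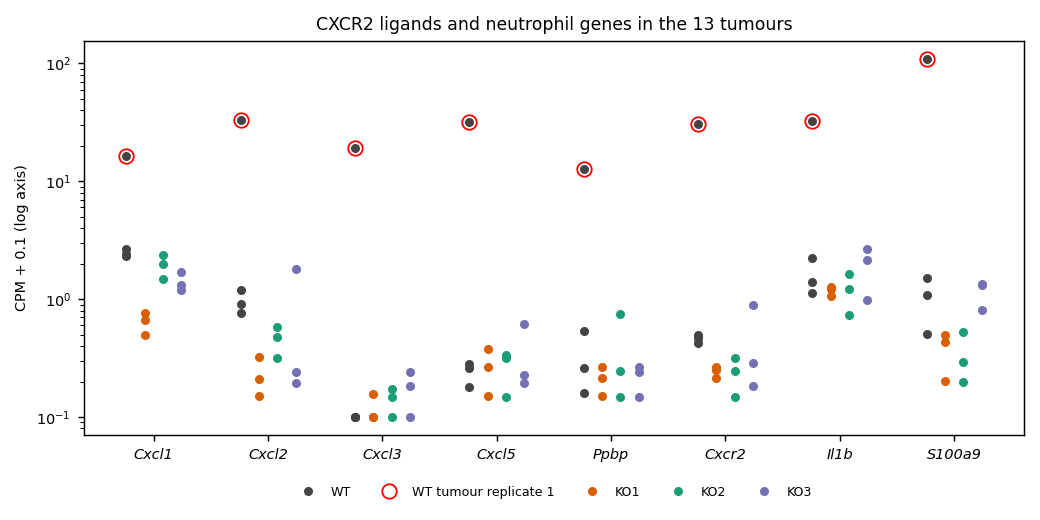
CXCR2 ligands (Cxcl1, Cxcl2, Cxcl3, Cxcl5, Ppbp), their receptor gene Cxcr2, and Il1b and S100a9 in the 13 tumours, as CPM scaled by TMM plus 0.1 on a log axis; points are tumours, by genotype, and the red ring marks WT tumour replicate 1. The ringed tumour is the highest for each of these genes, at 16.3 CPM for Cxcl1 and 110 CPM for S100a9.

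Many pairs of ligands varied together across the 13 tumours, described here by Pearson's r of log2 CPM. These points share the library scaling, the cell lines and the 1 tumour that stands apart, so r is given without that tumour too. Cxcl9 and Cxcl16 had r = 0.84 (0.83 without it), Cxcl10 and Cxcl16 r = 0.84 (0.82), and Cxcl9 and Cxcl10 r = 0.64 (0.60). Ccl5 and Ccl8 had r = 0.87 (0.89), Ccl2 and Ccl7 r = 0.91 (0.75), and Ccl7 and Ccl8 r = 0.73 (0.86). The pairs did not fall into separate sets, since Cxcl9 and Ccl5 had r = 0.75 (0.80), Cxcl12 and Ccl8 r = 0.81 (0.80), Cxcl9 and Ccl8 r = 0.65 (0.80), and Cxcl12 and Cxcl16 r = 0.52 (0.87). Cxcl1 ran against most others once WT replicate 1 was left out, with r = -0.94 for Cxcl12, -0.89 for Cxcl16 and -0.82 for Cxcl10, where all 13 tumours gave -0.11, -0.80 and -0.73. Cx3cl1 was not strongly related to another ligand, its largest r being 0.34 with Cxcl16.

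**Figure D4:**
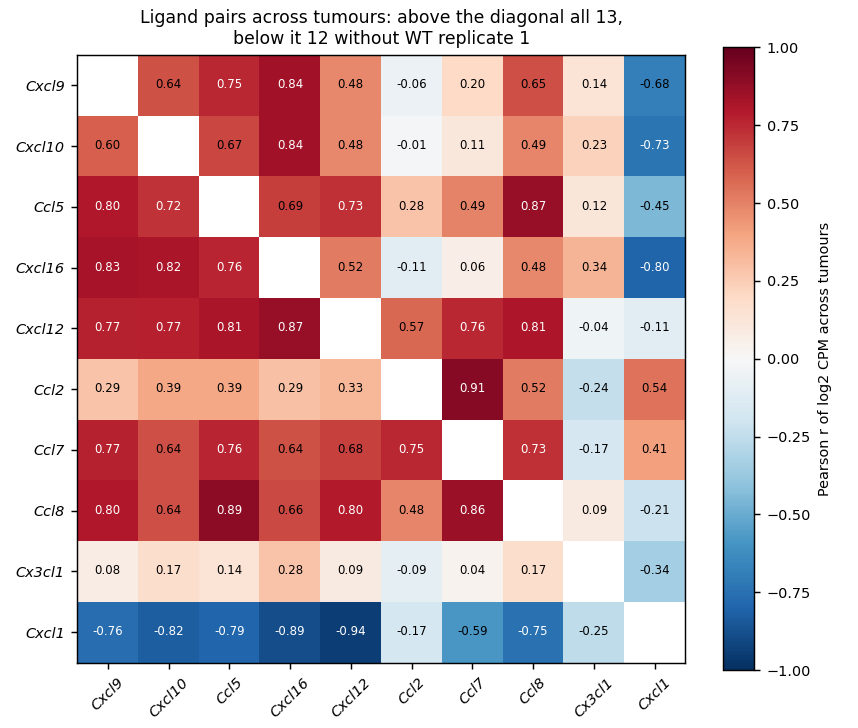
Pearson's r of log2 CPM for each pair of ligands across tumours, above the diagonal over all 13 and below it over the 12 without WT replicate 1 (colour from -1, blue, to 1, red). Cxcl1 and Cxcl12 go from -0.11 above the diagonal to -0.94 below it, and Ccl2 and Ccl7 from 0.91 to 0.75.

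Genes whose level followed each ligand most closely over the 13 tumours were taken among those whose log2 CPM averaged 1 or more, leaving out predicted genes. There were 10858 candidates for each ligand, and 10859 for Cxcl1, so the 3 highest r are high by selection. These places depended on WT replicate 1: without it 6 of the 30 genes kept a place in the first 3 for their ligand. For Cxcl9 they were Tnfsf10, Ifi47 and Gatm (r = 0.88, 0.87 and 0.86), and for Ccl5 Zbp1, Epsti1 and Parp12 (0.94, 0.89 and 0.89). For Cxcl10 they were Lgals3bp, Ptk2b and Anxa11 (0.90, 0.85 and 0.85), and for Cxcl16 they included Lgals3bp and Gatm (0.88 and 0.88). Ccl8 was followed by Parp12, Evi2a and Mrc1 (0.96, 0.96 and 0.95), Ccl7 by Cytip, Osmr and Ccl9 (0.97, 0.96 and 0.96), and Ccl2 by Pmp22, Hk3 and Tm4sf1 (0.93, 0.93 and 0.92). Cxcl12 was followed by Rassf2, Pik3cd and Irf5 (0.97, 0.97 and 0.96), and Cx3cl1 by Gpsm1, Gucy2g and Gadd45gip1 (0.89, 0.87 and 0.87). For Cxcl1 they were Mettl22, Bst1 and Ppp1r15a (0.94, 0.93 and 0.92), which were 0.85, 0.83 and 0.84 without WT replicate 1 and ranked 62, 85 and 65. For Ccl2 the 3 values fell to 0.81, 0.80 and 0.80 without it, and for the 24 genes of the other 8 ligands they were 0.85 to 0.96, with Gatm at rank 31 for Cxcl9, Anxa11 at 66 for Cxcl10 and Osmr at 21 for Ccl7. Zbp1, Parp12, Epsti1 and Ifi47 are interferon-stimulated genes, and Mrc1 is a macrophage mannose receptor. The other genes named were not sorted by function, so no theme is read from the list.

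The receptors for these ligands were at or near 0 in cultured cells: of 18 chemokine receptor genes none could be tested there, and 13 had no count in any cell library. Against WT cells 9 could be tested, and they entered through the tumours alone, so their direction is no result. Per kilobase the 3 highest medians in tumours were those of Cxcr4 (6.04 CPM per kilobase), the CXCL12 receptor, Ccr1 (3.79), a receptor of CCL5 and CCL7 among others, and Ccr8 (3.44), found on regulatory T cells. Cxcr3, the receptor of CXCL9 and CXCL10, was at 0.145 to 0.897 CPM in tumours, and Cxcr6, that of CXCL16, at 0.142 to 0.948 CPM. Between KO and WT tumours none of 12 receptor genes passed, none had an unadjusted p under 0.05 by edgeR, and DESeq2 called none. Their median log2 fold change was 0.41.

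Of 28 other chemokine ligand genes, 18 could be tested between KO and WT tumours, where 2.37% of all genes were lower and 1.28% higher by edgeR. Of these 18 ligands 1 was lower and none higher. It was Cxcl2, with a log2 fold change of -4.51 ± 0.97 (SE, adjusted p = 0.0243 by edgeR), which was -1.15 ± 0.75 (adjusted p = 0.408 by edgeR) without WT replicate 1. Cxcl2 was at 33.1 CPM in WT replicate 1 and 0.670 to 1.10 in the other WT tumours, with a median of 0.215 in KO tumours. It may have passed the filter on low counts through the WT tumours, so its direction is no result. DESeq2 called 1 of the 14 with an adjusted p, Pf4, the platelet factor 4 gene. Of the 23 inducing and relaying genes, 20 were tested and Il1b, the interleukin 1β gene, was the 1 that passed. It fell by 2.79 ± 0.70 on the log2 scale (SE, adjusted p = 0.0422 by edgeR), and was at -0.14 (adjusted p = 0.871 by edgeR) without that tumour. DESeq2 called 4 others of the 19 with an adjusted p, Irf1, Irf7, Irf9 and Stat2, none of which passed by edgeR. It also called more genes in all than edgeR here, a count given in the closing section. Its share of all genes was not taken, so these calls have no background to be read against. Of 7 cytotoxic and natural killer genes 4 were tested in tumours and 2 were higher in KO, as were 1.28% of all genes. They were Gzmb, granzyme B, by 2.09 ± 0.46 and Klrk1, the NKG2D receptor gene, by 1.49 ± 0.39 on the log2 scale (SE, adjusted p = 0.0258 and 0.0491 by edgeR). Both missed the threshold without WT replicate 1, at 1.78 and 1.56 (adjusted p = 0.0622 and 0.0773 by edgeR). Gzmb was near the floor, at 0.0474 CPM in WT replicate 1, 0.118 to 0.243 in the other WT tumours and 0.334 to 0.954 in KO tumours. It passed the filter on low counts through the KO tumours, so its direction is no result. The 10 T cell markers summed to 4.27 to 6.68 CPM in WT and 5.93 to 12.2 CPM in KO tumours, and none of the 5 that could be tested passed, with 2 at an unadjusted p under 0.05 by edgeR and none called by DESeq2.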

How the data were processed

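Libraries were prepared from polyadenylated RNA with a stranded kit, and each fragment was read from both ends over 50 bp (per the labels' protocols). Estimated counts per gene were deposited by the authors, for 45706 genes in 21 libraries, as a plain table and as one scaled by transcript length. Of the values in a plain library 7.96% to 10.2% were not whole numbers. The tools named are Trim Galore 0.6.7, STAR and Salmon 1.5.2, with the build GRCm38, per the submitters' processing notes, which give no settings here. GENCODE M21 held 45143 of the gene IDs and supplied positions and exon lengths. No column was left unused.

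From the plain table, estimated counts were rounded, filtered by filterByExpr and scaled by TMM. The test was the quasi-likelihood test of edgeR 4.0.16 (with limma 3.58.1 in R 4.3.3), adjusted by Benjamini-Hochberg over all genes tested, at a threshold of 0.05. Fits were KO against WT within cells and within tumours, an F test over the 3 KO lines with WT in the fit, WT tumours against WT cells, and the interaction on 21 libraries. A gene was called detected at 10 estimated counts, and 0 was given a floor of 3 counts. Correlations used log2 CPM with a prior count of 2. The steps were tested on simulated data.

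The ligands and gene lists were chosen with earlier results of these data known. Every ligand is named. Named from the other lists are the 3 genes with the smallest p among those past the threshold in KO against WT, the 3 highest per kilobase in tumours for ligands and receptors, and the 3 genes most like each ligand, except that some items are not reported here. Other genes with values (marker genes, Cxcl3, Cxcl5, Ppbp, Cxcr2, Cxcr3, Cxcr6, Ifng, Ifnb1, Irf7, Yam1 and those of the closing section) were picked after their values were seen.

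Each fit was repeated with RLE scaling, with DESeq2 1.42.0, unfiltered, on the length-scaled table, with the replicate number as a block and without each library. KO against WT was also fitted without the KO3 line, with lines as groups and with WT tumours 3 and 4 summed, and levels were recomputed as CPM by library total. A fit without WT tumours 1 and 4 was chosen after seeing the data. A group left with 1 library borrowed its spread from the others. Replicates of a group differed beyond sampling noise in each pair, with a lowest chi-square per degree of freedom of 8.39. Figures were drawn with matplotlib 3.10.9.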

Additional observations from a re-analysis of the deposited data

Results flagged for a closer look

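In groups of 4 to 10 libraries the highest or lowest value was compared with the gap to its neighbour, which chance marks in about 1 of 20 groups. Of 24 groups of ligand levels 5 had an outlying library, 4 of them through WT tumour replicate 1 among the 4 WT tumours. There Cxcl1 was at 16.3 CPM, Cxcl12 at 53.4 CPM, Ccl2 at 26.9 CPM and Ccl7 at 28.9 CPM, each far above the other 3 WT tumours. Among the 9 KO tumours, Ccl8 in KO1 replicate 1 stood apart at 146 CPM, the next being 79.0 CPM in the same line.

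Levels differed among the KO lines in cultured cells for Cx3cl1 (adjusted p = 4.99e-05 by edgeR), which was higher than WT in KO3 and lower in KO1 and KO2. They also differed for Ccl5 (adjusted p = 0.0348 by edgeR), with KO1 the highest of the lines at 0.954 and 0.992 CPM, a level of 19 and 26 counts. That call was lost in each of the 8 fits that leave out a library (adjusted p = 0.0534 to 0.161 by edgeR), by DESeq2 (adjusted p = 0.211), unfiltered (adjusted p = 0.0582 by edgeR) and on the length-scaled table (adjusted p = 0.0884 by edgeR).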

How the results depend on the processing

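The count of genes past the threshold in KO against WT cells, 1808, was 4315 without KO3, 4780 with lines as groups and 378 (without WT replicate 1) to 2221 with a library left out. In KO against WT tumours the count of 518 became 1088 by DESeq2, 332 unfiltered, 98 with the replicate block, 1118 with lines as groups, 246 with WT tumours 3 and 4 summed, 89 without WT tumours 1 and 4, and 154 to 594 with a library left out. The 3713 genes that differed among lines in cells were 2271 on the length-scaled table and 2094 to 4247 with a library left out. The 427 in tumours were 1263 by DESeq2 and 128 to 1095, the last without WT replicate 1. WT tumours against WT cells gave 7159 genes and 3853 to 8115 with a library left out, and the interaction gave 146, 316 by DESeq2 and 42 to 192. On the length-scaled table the levels in WT tumour replicate 1 were 17.3 CPM for Cxcl1 and 69.7 CPM for Cxcl12.

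Among the ligands, the log2 fold change of KO against WT tumours changed sign for Cxcl12 on the length-scaled table (-0.051), with lines as groups (-0.048) and with WT tumours 3 and 4 summed (-0.083), and ran from -0.11 to 0.81 with a library left out. For Ccl2 it ran from -0.82 to 0.12 and for Ccl7 from -0.73 to 0.42, positive without WT replicate 1 alone, and Ccl7 was at 0.27 without WT replicates 1 and 4. Cxcl1 in WT tumours against WT cells ran from -0.25 to 1.42. With the replicate block Cxcl1 was at -2.13 in KO against WT tumours (adjusted p = 0.115 by edgeR), and Ccl5 among the lines in cells had an adjusted p of 0.0520. Replicate numbers do not pair these samples: same-numbered libraries deviated with correlations of -0.39 to 0.16 in tumours and -0.05 to 0.15 in cells. Other losses were Cx3cl1 in WT tumours against cells (adjusted p = 0.0520 unfiltered) and Ccl5 among lines (adjusted p = 0.0582 unfiltered and 0.0884 on the length-scaled table). The cause of each change was not tested. Ligands near 0 in cells could not be compared between lines at this depth.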

Other observations

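Several chemokine ligands outside the 10 had reads in the cultured cells, and some of them were near 0 in the tumours. Cxcl15, a CXC ligand known from lung epithelium, was at 35.4 to 60.4 CPM in the 8 cell libraries and at 0 to 0.322 CPM in the 13 tumours. Cxcl5, a CXCR2 ligand, was at 6.92 to 15.4 CPM in cells and at 0.0485 to 0.518 CPM in 12 tumours, with 31.6 CPM in WT tumour replicate 1. Cxcl17, a ligand of mucosal tissues, was at 34.6 and 36 CPM in WT cells, 7.68 and 7.44 in KO1, 10.7 and 7.03 in KO2, and 28.5 and 27.6 in KO3, and differed among the KO lines (adjusted p = 4.77e-06 by edgeR). Ackr3, a scavenging receptor of CXCL12, was at 69.9 to 82.8 CPM in cells and 4.51 to 18.2 CPM in tumours, with a log2 fold change of WT tumours against WT cells of -3.22 ± 0.57 (SE, adjusted p = 0.00362 by edgeR). Ccl28, a ligand of mucosal epithelium, went the other way, from 0.633 to 1.37 CPM in cells to 32.6 to 142 CPM in tumours (log2 fold change of WT tumours against WT cells 6.89 ± 0.60, SE, adjusted p = 0.000208 by edgeR).

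Between KO and WT cells 9 of the 28 other ligands could be tested, and 2 were higher and 1 lower. Over all genes 4.99% were higher and 9.76% lower. Ppbp, a CXCR2 ligand best known from platelets, rose by 1.37 ± 0.37 (SE, adjusted p = 0.0383 by edgeR), from 1.01 and 0.838 CPM in WT to 1.40 to 3.11 CPM in KO cells. Ccl27a, a skin-associated ligand, rose by 0.65 ± 0.16 (SE, adjusted p = 0.0280 by edgeR), and Cxcl15 fell by 0.50 ± 0.15 (SE, adjusted p = 0.0480 by edgeR), all on the log2 scale. DESeq2 called the same 3. Nfkb2, an NF-κB subunit gene, was the 1 of 18 tested genes of chemokine induction that passed in cells, where 14.8% of all genes did. Its log2 fold change was 0.44 ± 0.11 (SE, adjusted p = 0.0253 by edgeR). In tumours Ccl6 and Ccl12, ligands made by macrophages, had the highest medians of the other ligands per kilobase, 34.9 and 18.6 CPM per kilobase, and Ccl28 followed at 13.5. Ccl6 had 1 count, and Ccl12 none, over all 8 cell libraries.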
